A study of Mus musculus with 21 samples.

Results

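Perforin, granzymes A, K and M, and the genes of the machinery that releases cytotoxic granules were followed in cultured natural killer (NK) cells of the mouse. The set was defined by name and listed 10 genes: Prf1, Gzma, Gzmk, Gzmm, Unc13d, Rab27a, Lyst, Stx11, Stxbp2 and Lamp1. Of these, 9 had a row among the 11736 genes of the expression table, and Lyst was not analysed here. NK cells had been sorted from mouse spleen and kept in culture with recombinant human interleukin 15 (IL-15) at 50 ng/ml, and polyadenylated RNA was sequenced. The groups were cells of NK cell conditional knockouts of both Ikzf1 and Ikzf3 (DKO, 3 libraries, S5 to S7), of Ikzf1 (Ikzf1 KO, 4 libraries, S12 to S15) and of Ikzf3 (Ikzf3 KO, 4 libraries, S1 to S4), and cells of control mice with Cre only (4 libraries, S16 to S19). Ikzf1 encodes Ikaros and Ikzf3 encodes Aiolos, related zinc finger transcription factors of lymphocytes. The controls are named by Cre alone, and the labels do not state whether the knockouts carry the same Cre. The labels give neither the driver of the Cre recombinase nor the age or strain of the mice, and they call the libraries biological replicates. Column names in the table do not mention culture. DKO and Ikzf3 KO have only cultured samples in the labels. For Ikzf1 KO and Cre only, the number of libraries, which matches the cultured groups, is what assigns them here. The 6 directly sorted samples of the 21 in the labels were not analysed here. The study set the knockouts against the controls, and its title names AP-1 complexes as targets of Ikaros and Aiolos.

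NK cells kill by emptying lytic granules, which are modified lysosomes, onto a target cell. Perforin, the product of Prf1, makes pores in membranes, and granzymes are serine proteases that act inside the target. Granzymes A and K cut after basic residues, and granzyme M after methionine or leucine. Release needs docking of the granule by the small GTPase Rab27a, priming by Munc13-4 (gene Unc13d) and fusion by syntaxin 11 (Stx11) with its chaperone Munc18-2 (Stxbp2). Lamp1, or CD107a, is a glycoprotein of the granule membrane, and its arrival at the cell surface is a common measure of release. In humans, inherited loss of perforin or of several of these release proteins causes haemophagocytic lymphohistiocytosis.

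The 4 genes of granule cargo lie at 3 places in the genome. On build mm10, with gene bounds of GENCODE mouse release 21, Prf1 (ENSMUSG00000037202) spans chr10:61297833-61304680 on the plus strand and Gzmm (ENSMUSG00000054206) chr10:79689020-79695261 on the plus strand. Gzma (ENSMUSG00000023132) at chr13:113093825-113100981 and Gzmk (ENSMUSG00000042385) at chr13:113171608-113225908 are both on the minus strand, 70.6 kb apart with 3 other annotated genes between them. The bounds of Gzmk overlap those of Esm1 on the opposite strand. Whether their exons overlap was not tested, and whether strand was used in counting is not given in the sources used here. The RefSeq start of Gzmk lies inside these longer bounds. RefSeq promoters, from 250 bases before to 50 after the start on GRCm38.p6, were at hand for 8 of the members, 10 windows in all. The windows of the cargo genes are shown because these genes differed most between the genotypes. They are written on the strand of the gene, at chr10:61297586-61297885 for Prf1, chr13:113100932-113101231 for Gzma, chr13:113180916-113181215 for Gzmk and chr10:79688770-79689069 for Gzmm, where the first of 2 windows is given. Capitals mark GGGAA or its reverse complement, the core of the sites that Ikaros and Aiolos bind.
Prf1: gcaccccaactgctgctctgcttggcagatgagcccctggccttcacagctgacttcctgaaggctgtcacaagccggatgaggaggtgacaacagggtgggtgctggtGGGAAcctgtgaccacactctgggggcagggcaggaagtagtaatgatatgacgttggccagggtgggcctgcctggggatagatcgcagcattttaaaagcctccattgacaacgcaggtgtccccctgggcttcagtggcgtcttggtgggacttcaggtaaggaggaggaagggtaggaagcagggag
Gzma: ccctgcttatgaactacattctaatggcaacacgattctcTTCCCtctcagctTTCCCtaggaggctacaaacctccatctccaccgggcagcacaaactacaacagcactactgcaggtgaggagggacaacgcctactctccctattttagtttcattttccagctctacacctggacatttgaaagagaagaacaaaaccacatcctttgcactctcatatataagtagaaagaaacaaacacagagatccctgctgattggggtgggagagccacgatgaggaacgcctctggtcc
Gzmk: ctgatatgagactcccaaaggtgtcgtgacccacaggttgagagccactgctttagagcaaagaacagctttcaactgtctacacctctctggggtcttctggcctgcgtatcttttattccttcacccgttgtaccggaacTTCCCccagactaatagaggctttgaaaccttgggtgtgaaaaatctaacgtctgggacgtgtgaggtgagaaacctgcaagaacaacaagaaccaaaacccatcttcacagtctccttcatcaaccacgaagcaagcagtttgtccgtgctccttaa
Gzmm: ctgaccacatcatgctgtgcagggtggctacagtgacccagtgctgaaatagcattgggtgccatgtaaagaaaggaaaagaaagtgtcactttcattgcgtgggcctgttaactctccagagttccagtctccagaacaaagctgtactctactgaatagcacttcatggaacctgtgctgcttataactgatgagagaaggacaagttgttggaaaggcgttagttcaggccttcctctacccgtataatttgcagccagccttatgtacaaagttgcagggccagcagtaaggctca
The longer motif TGGGAA, searched on both strands, was in 2 of the 10 windows, 142 bases before the start of Prf1 and 133 before that of Stx11, and in 25.6% of all 32851 promoters of the reference table. Its last 5 letters GGGAA were in 8 of the 10 and in 62.7% of all promoters, and neither window of Gzmm held them. The AP-1 motif TGANTCA was in 0 of the 10 and in 7.81% of all promoters, and the Runx motif TGTGGT in 5 of the 10 and in 16.8% of all. These counts describe letters in these windows and nothing about binding.

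Levels are in RPKM, which divide reads by the length of the gene and the size of the library, as deposited. Reads could be recovered as whole numbers, at 8.61 to 21.25 megareads per library. In limma fits, the check of the deletions gave Ikzf1 lower by a log2 change of -1.04 ± 0.14 (SE) in DKO and -1.67 ± 0.13 in Ikzf1 KO cells, and Ikzf3 lower by -0.94 ± 0.12 in DKO and -1.21 ± 0.11 in Ikzf3 KO cells, each against Cre only cells. These are values of whole genes, in which any exons that remain after deletion still count. Ikzf1 was at 25.26 to 38.45 RPKM in DKO libraries, above the 18.26 to 19.86 RPKM of the Ikzf1 KO libraries. Ikzf3 was at 19.96 to 23.73 RPKM in DKO and 15.19 to 20.17 RPKM in Ikzf3 KO libraries. The source of the remaining signal was not tested. Within the groups some libraries stood apart. Among the Ikzf3 KO libraries, S1 and S2 were closer to each other than to S3 and S4, and among the Cre only libraries S16 and S17 were closer to each other than to S18 and S19. The DKO library S5 stood apart from S6 and S7 (chi-square per degree of freedom of 76.0 and 96.3, against 24.8 between S6 and S7) and the Ikzf1 KO library S15 from S12 to S14 (26.6 to 29.6, against 3.56 to 10.8 among those). S5 was the lowest DKO library for Prf1, Gzma, Gzmm and Stx11. The labels do not say what sets them apart. Of 8 NK cell markers 7 had rows. Their summed level was 1660 to 1995 RPKM in DKO, 1467 to 1678 in Ikzf1 KO, 1235 to 1941 in Ikzf3 KO and 1952 to 2061 in Cre only libraries. Nkg7 had the highest mean of these markers in each group, at 847 RPKM in DKO and 1190 RPKM in Cre only cells. The means of Ncr1, Klrk1, Eomes and Klrd1 were higher in DKO than in Cre only cells. Those of Klrb1c, Tbx21 and Nkg7 were lower.

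Prf1 was the member with the widest range of levels. Its level was 10.0, 30.2 and 66.4 RPKM in the DKO libraries S5, S6 and S7, and 150.4, 144, 146 and 141 RPKM in S12 to S15 of Ikzf1 KO cells. In S1 to S4 of Ikzf3 KO cells it was 1048, 919, 489.6 and 229 RPKM, against 740.3, 1095, 654 and 390.2 RPKM in S16 to S19 of Cre only cells. The DKO libraries all lay below the Ikzf1 KO libraries, these lay below all others, and Ikzf3 KO and Cre only libraries overlapped. The mean was 35.5 ± 28.6 RPKM in DKO (SD, n = 3), 145 ± 4.05 in Ikzf1 KO (SD, n = 4), 671 ± 379 in Ikzf3 KO (SD, n = 4) and 719.8 ± 291 in Cre only cells (SD, n = 4). The spread also differed: the SD was 80.5% of the mean in DKO, 2.79% in Ikzf1 KO, 56.5% in Ikzf3 KO and 40.4% in Cre only cells. These levels rested on 385 to 41625 reads per library. The counting error of a library was at most 5.10% in DKO, 1.18% in Ikzf3 KO and 0.779% in Cre only cells, well under the spread there, but 1.11 to 1.49% in Ikzf1 KO cells, a sizeable part of their small spread. In a bulk sample, fewer cells with a transcript and less transcript per cell cannot be told apart.

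Prf1 was lower in DKO than in Cre only cells, at -4.60 ± 0.57 on the log2 scale and a fold of 0.0412 (limma, adjusted p = 6.72e-05). It was also lower in Ikzf1 KO than in Cre only cells, at -2.21 ± 0.53 and a fold of 0.216 (adjusted p = 0.0220). The DKO value was called under all 25 alternatives, with log2 changes between -5.23 and -3.90. The Ikzf1 KO value lost its call on leaving out any 1 of 6 libraries (adjusted p of 0.0720 at most, without S17), with log2 changes between -2.23 and -1.98. It also lost its call without the pair S16 and S17 (log2 change -1.79, adjusted p = 0.204). Fitted on the Ikzf1 KO and Cre only libraries by themselves, it had an adjusted p of 0.000907. The main fit shares its estimate of the spread of a gene among the 4 groups. For Prf1 the SD of log2 values ran from 0.04 in Ikzf1 KO to 1.34 in DKO cells. The Ikzf3 KO value, -0.23 ± 0.53 with a 95% confidence interval between -1.36 and 0.89, was not called (adjusted p = 0.777), and it changed sign without S3 and S4 (0.54), without S4 alone (0.21), without S16 and S17 (0.18) and with library weights (0.28). Compared directly, Prf1 was lower in DKO than in Ikzf3 KO cells (-4.37 ± 0.57, adjusted p = 0.000108) and lower in DKO than in Ikzf1 KO cells (-2.39 ± 0.57, adjusted p = 0.0188). The second of these was lost without S5 (-1.69, adjusted p = 0.0696), without S6 (adjusted p = 0.0623) or without S12 (adjusted p = 0.0518). Prf1 was also lower in Ikzf1 KO than in Ikzf3 KO cells (-1.98 ± 0.53, adjusted p = 0.0213), a call lost without S12 (adjusted p = 0.0533) or S15 (adjusted p = 0.0536).

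**Figure D1:**
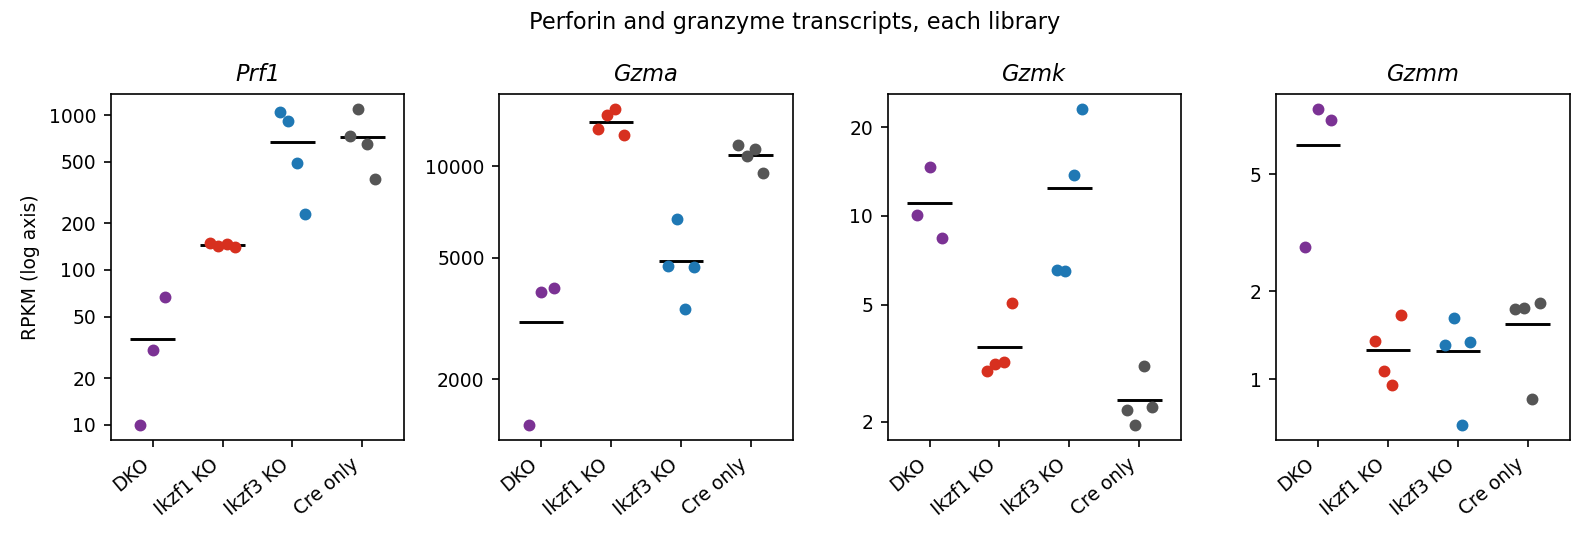
RPKM (log axis) of Prf1, Gzma, Gzmk and Gzmm in each library of DKO, Ikzf1 KO, Ikzf3 KO and Cre only cells, with the group mean as a line. Prf1 runs between 10.0 and 66.4 RPKM in the DKO libraries and between 390.2 and 1095 in the Cre only libraries, whereas Gzmm is higher in the 3 DKO libraries than in all others.

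Gzma was among the most abundant transcripts of these cells in every genotype. It reached 1422, 3858 and 3974 RPKM in the DKO libraries, 13250, 14660, 15350 and 12670 in the Ikzf1 KO libraries, and 4696, 6690, 3413 and 4668 in the Ikzf3 KO libraries S1 to S4. The Cre only libraries had 11750, 10820, 11390 and 9506 RPKM, and Gzma ranked between 1 and 3 among all genes of each of them. In DKO libraries it ranked between 4 and 16, in Ikzf1 KO libraries at 1 or 2 and in Ikzf3 KO libraries between 4 and 8. Its reads made up 0.166 to 0.445% of the recovered reads in DKO, 1.35 to 1.64% in Ikzf1 KO, 0.344 to 0.686% in Ikzf3 KO and 0.979 to 1.19% in Cre only libraries. DKO and Ikzf3 KO libraries lay below all Cre only libraries, and Ikzf1 KO libraries lay above them.

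Gzma fell to a fold of 0.258 of Cre only cells in DKO cells (log2 change -1.95 ± 0.31, adjusted p = 0.000587) and to a fold of 0.437 in Ikzf3 KO cells (log2 change -1.20 ± 0.29, adjusted p = 0.0154). The Ikzf3 KO call was lost without S3 and S4 (-0.95, adjusted p = 0.0852), without S16 and S17 (adjusted p = 0.0994) and without S18 and S19 (adjusted p = 0.0697). In Ikzf1 KO cells the log2 change was 0.36 ± 0.29 (adjusted p = 0.574). It passed in a fit of the compared groups alone (adjusted p = 0.0220) and with library weights (adjusted p = 0.0378). Compared directly, Gzma was lower in DKO than in Ikzf1 KO cells (log2 change -2.32 ± 0.31, adjusted p = 0.000367) and higher in Ikzf1 KO than in Ikzf3 KO cells (log2 change 1.56 ± 0.29, adjusted p = 0.00247). Both calls held under every alternative. Between DKO and Ikzf3 KO cells, whose libraries overlap, the log2 change of -0.76 ± 0.31 was not called (adjusted p = 0.0977). It was -0.27 without S5 and -0.23 after quantile normalization, and it passed with library weights (-0.92, adjusted p = 0.0284).

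Prf1 and Gzma were both lowest in DKO cells, and they differed in which single knockout was called lower than Cre only cells. Their ratio per library is given as a description. DKO libraries held 59.9 to 142 RPKM of Gzma for each RPKM of Prf1, Ikzf1 KO libraries 88.1 to 105, Ikzf3 KO libraries 4.48 to 20.4 and Cre only libraries 9.88 to 24.4. The DKO and Ikzf1 KO libraries all lay above the Ikzf3 KO and Cre only libraries. Within the Ikzf3 KO group the ratio was highest in S4, whose Prf1 was lowest.

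**Figure D2:**
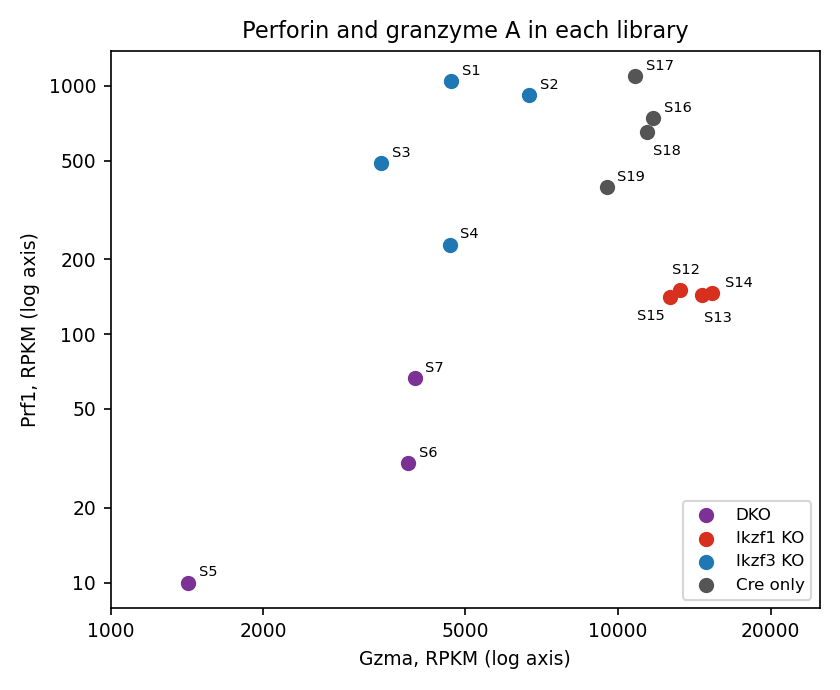
Prf1 against Gzma in each of the 15 libraries, both in RPKM on log axes, coloured by genotype. The Ikzf1 KO libraries share the high Gzma of the Cre only libraries at a lower Prf1 of 141 to 150.4 RPKM, and the Ikzf3 KO libraries have less Gzma at a Prf1 of 229 to 1048 RPKM.

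Gzmk, the neighbour of Gzma, was higher in the genotypes in which Gzma was lower. Its level was 10.1, 14.7 and 8.42 RPKM in the DKO libraries and 2.98, 3.15, 3.18 and 5.06 in the Ikzf1 KO libraries. It was 6.55, 6.48, 13.8 and 23.0 RPKM in the Ikzf3 KO libraries S1 to S4, against 2.19, 1.96, 3.10 and 2.25 in the Cre only libraries. DKO and Ikzf3 KO libraries all lay above the Ikzf1 KO and Cre only libraries, and S3 and S4 stood above S1 and S2. Gzmk rose to a fold of 3.96 of Cre only cells in DKO cells (log2 change 1.98 ± 0.36, adjusted p = 0.00156) and to a fold of 3.99 in Ikzf3 KO cells (log2 change 2.00 ± 0.33, adjusted p = 0.00190). Both calls held under all 25 alternatives. The Ikzf3 KO value was 1.30 without S3 and S4. In Ikzf1 KO cells the log2 change was 0.50 ± 0.33 (adjusted p = 0.474).

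Compared directly, Gzmk differed by -0.01 ± 0.36 on the log2 scale between DKO and Ikzf3 KO cells, with a 95% confidence interval between -0.78 and 0.76 (adjusted p = 0.984), and by 0.68 without S3 and S4. It was lower in Ikzf1 KO than in Ikzf3 KO cells (-1.50 ± 0.33, adjusted p = 0.00786), at -0.80 without S3 and S4. It was higher in DKO than in Ikzf1 KO cells (1.49 ± 0.36, adjusted p = 0.0201), a call lost without S6 (1.27, adjusted p = 0.113), S12 (adjusted p = 0.0626), S13 (adjusted p = 0.0557) or S14 (adjusted p = 0.0561). Because Gzma is far more abundant, Gzma made up between 99.1% and 99.97% of the summed RPKM of the 3 granzyme genes in every library. The RPKM of Gzma for each RPKM of Gzmk was 142 to 472 in DKO, 2506 to 4822 in Ikzf1 KO, 203 to 1033 in Ikzf3 KO and 3674 to 5528 in Cre only libraries. The DKO and Ikzf3 KO libraries lay below the Ikzf1 KO and Cre only libraries in this ratio.

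Gzmm was scarce outside the DKO cells and rested on 13 to 250 reads per library. Its level was 2.83, 8.33 and 7.68 RPKM in the DKO libraries S5, S6 and S7. It was 1.35, 1.07, 0.956 and 1.66 in the Ikzf1 KO libraries, and 1.32, 1.62, 0.702 and 1.34 in the Ikzf3 KO libraries, against 1.74, 1.75, 0.858 and 1.83 in the Cre only libraries. Every DKO library lay above every other library, and the other 3 groups overlapped. The mean level was 6.28 RPKM in DKO and 1.545 RPKM in Cre only cells. Gzmm rose in DKO against Cre only cells by a log2 change of 1.64 ± 0.32, a fold of 3.11 in RPKM + 0.5 (limma, adjusted p = 0.00269). It was also higher in DKO than in Ikzf1 KO cells (1.84 ± 0.32, adjusted p = 0.00224) and Ikzf3 KO cells (1.86 ± 0.32, adjusted p = 0.000959). All 3 calls held under all 25 alternatives. The single deletions gave -0.20 ± 0.29 in Ikzf1 KO (adjusted p = 0.812) and -0.23 ± 0.29 in Ikzf3 KO cells (adjusted p = 0.603), values on the scale of log2(RPKM + 0.5), which understates changes at such low levels.

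The departure from additivity asks whether the DKO change differs from the sum of the changes in Ikzf1 KO and Ikzf3 KO cells, on the log2 scale. For Gzmm it was 2.07 ± 0.43 (adjusted p = 0.0108). The call held when any 1 library was left out and was lost without S16 and S17 together (1.90, adjusted p = 0.0573). For Prf1 it was -2.16 ± 0.78 and did not pass (adjusted p = 0.122), but it passed without S3 and S4 (-2.93, adjusted p = 0.0234), without S4 (adjusted p = 0.0423), without S7 (adjusted p = 0.0406) and with library weights (adjusted p = 0.000479). For Gzma it was -1.12 ± 0.42 and not called (adjusted p = 0.142), with -0.64 without S5 and -0.29 after quantile normalization, and it passed with library weights (-1.31, adjusted p = 0.00959). The value for Gzmk was -0.51 ± 0.49 and not called (adjusted p = 0.578).

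Markers of T cells also differed between the groups, and their part in these results was not tested. Of 10 such markers 8 had rows, and their summed level was 779 to 1624 RPKM in DKO, 446 to 535 in Ikzf1 KO, 465 to 626 in Ikzf3 KO and 420 to 668 in Cre only libraries. Cd3e, a signalling chain of the T cell receptor complex, was at 24.8, 42.4 and 44.8 RPKM in S5, S6 and S7, against 0.237 to 3.10 RPKM in the Cre only libraries. Cd3d, another chain, was at 63.8 to 177 RPKM in DKO and 2.97 to 23.9 RPKM in Cre only libraries, whereas Cd3g overlapped, at 30.2 to 56.3 RPKM in DKO and 8.01 to 49.1 RPKM in Cre only libraries. The co-receptor gene Cd4 stayed near 0, with 0.256 to 1.30 RPKM in DKO and up to 0.523 RPKM in Cre only libraries. Cd6 was likewise low, at up to 1.37 RPKM in DKO and 0.270 RPKM in Cre only libraries. Trac was at 76.8 to 185 RPKM in DKO and 9.03 to 26.2 RPKM in Cre only libraries. Trbc2 was at 380 to 756 RPKM in DKO and 136 to 260 RPKM in Cre only libraries. Trbc1 overlapped, at 202 to 410 RPKM in DKO and 263.5 to 311 RPKM in Cre only libraries. A set of 6 genes typical of type 1 innate lymphoid cells, all with rows, summed to 468 to 643 RPKM in DKO, 400 to 476 in Ikzf1 KO, 38.1 to 119 in Ikzf3 KO and 93.7 to 351 in Cre only libraries. Tmem176b had the highest mean of them in DKO and Ikzf1 KO cells, 238 and 250 RPKM against 72.2 in Cre only cells. By mean, Tmem176a and Gpr55 were also higher in both knockouts, and Itga1 was lower in both (5.63 and 6.44 against 8.98 RPKM). Cxcr6 and Il7r were higher in DKO and lower in Ikzf1 KO than in Cre only cells. The markers of B cells and of macrophages that had rows, 1 of 6 and 2 of 6, summed to at most 2.23 and 4.65 RPKM in any library. The markers of mast cells and basophils, 3 of 6, summed to 52.1 to 190.9 RPKM, with the DKO libraries at up to 81.7. Of these, Kit averaged 39.9 RPKM in DKO, 104 in Ikzf1 KO, 83.2 in Ikzf3 KO and 103.6 in Cre only cells. Mcpt8 averaged 23.7, 62.9, 66.8 and 26.3 RPKM in the same order, and Cpa3 1.30, 2.59, 3.19 and 5.71 RPKM. The markers of ILC2 and ILC3, 4 of 5, summed to 10.0 to 37.0 RPKM. The 6 neutrophil and 5 erythroid markers were not analysed here.

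The 5 members of the release machinery differed less between the genotypes than the cargo, at most 1.62-fold between group means against 4.53-fold or more for each of the 4 cargo genes. Rab27a (ENSMUSG00000032202, chr9:73044854-73097629, plus strand), the GTPase that docks granules, was at 48.1, 48.1 and 47.2 RPKM in the DKO libraries and 45.2, 43.1, 45.2 and 47.6 in the Ikzf1 KO libraries. It was at 61.7, 55.1, 92.8 and 84.0 RPKM in the Ikzf3 KO libraries S1 to S4, against 50.7, 51.6, 43.9 and 43.7 in the Cre only libraries. All Ikzf3 KO libraries lay above all others, with S3 and S4 above S1 and S2, and the other groups overlapped. Against Cre only cells Rab27a rose in Ikzf3 KO cells by 0.60 ± 0.15 on the log2 scale, a fold of 1.51 (adjusted p = 0.0171). The call was lost without S3 and S4 (0.30, adjusted p = 0.0681), with library weights (0.26, adjusted p = 0.0547), with only the compared groups in the fit (adjusted p = 0.115), without S18 (adjusted p = 0.0512) and without S18 and S19 (0.48, adjusted p = 0.142). In DKO cells the value was 0.01 ± 0.16 (adjusted p = 0.967) and in Ikzf1 KO cells -0.06 ± 0.15 (adjusted p = 0.897). Rab27a was lower in Ikzf1 KO than in Ikzf3 KO cells (-0.66 ± 0.15, adjusted p = 0.00807) under every alternative, though at -0.36 on the log2 scale where the value was smallest. It was also lower in DKO than in Ikzf3 KO cells (-0.58 ± 0.16, adjusted p = 0.0189), a call lost without S3 and S4 (-0.28, adjusted p = 0.0664), with library weights (-0.28, adjusted p = 0.163), with only the compared groups (adjusted p = 0.172), without S6 (adjusted p = 0.0572) and without S7 (adjusted p = 0.0576). A processed pseudogene, Gm27186, lies within its bounds on the same strand.

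Unc13d (ENSMUSG00000057948, chr11:116062095-116077961, minus strand), encoding the priming factor Munc13-4, had 29.1, 19.6 and 21.9 RPKM in the DKO libraries and 26.0, 24.1, 25.9 and 28.7 in the Ikzf1 KO libraries. The Ikzf3 KO libraries had 29.95, 28.1, 31.2 and 22.6 RPKM, against 31.7, 35.3, 37.8 and 38.9 in the Cre only libraries. All knockout libraries lay below all Cre only libraries. The change passed in DKO cells alone, at -0.62 ± 0.15 on the log2 scale, a fold of 0.652 (adjusted p = 0.0105), and was lost without S6 (-0.50, adjusted p = 0.0703) or without S18 and S19 (-0.52, adjusted p = 0.0899). In Ikzf1 KO cells the log2 change was -0.45 ± 0.14 (adjusted p = 0.0711), and it passed with library weights, with only the compared groups in the fit, without S4, without S5 and without S3 and S4, with adjusted p down to 0.000572. In Ikzf3 KO cells it was -0.36 ± 0.14 (adjusted p = 0.0880). The direct comparisons between knockouts lay between -0.25 and -0.09 and were not called.

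Stxbp2 (ENSMUSG00000004626, chr8:3630955-3643644, plus strand), whose product Munc18-2 holds syntaxin 11 ready for fusion, was at 33.9, 26.9 and 29.1 RPKM in the DKO libraries and 39.9, 37.9, 37.0 and 45.9 in the Ikzf1 KO libraries. The Ikzf3 KO libraries had 35.6, 37.0, 53.1 and 41.0 RPKM, against 36.2, 42.7, 48.0 and 43.8 in the Cre only libraries. The DKO libraries lay below all others, and the remaining groups overlapped. In DKO cells Stxbp2 fell by a log2 change of -0.50 ± 0.15, a fold of 0.706 (adjusted p = 0.0338). The call was lost under 8 of 25 alternatives, among them quantile normalization (-0.43, adjusted p = 0.0731) and leaving out S6, S7, S17, S18 or S19, with adjusted p up to 0.149 without 1 library and 0.206 without S18 and S19 (-0.39). Against Ikzf3 KO cells the DKO value was -0.46 ± 0.15 (adjusted p = 0.0478), and it did not pass under 18 of 25 alternatives.

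Stx11 (ENSMUSG00000039232, chr10:12938209-12964298, minus strand), encoding the SNARE protein syntaxin 11, was at 5.20, 11.3 and 11.1 RPKM in the DKO libraries and 10.0, 7.43, 9.55 and 9.08 in the Ikzf1 KO libraries. The Ikzf3 KO libraries had 6.54, 5.79, 10.1 and 10.4 RPKM, against 14.3, 14, 10.8 and 12.2 in the Cre only libraries. Ikzf1 KO and Ikzf3 KO libraries lay below all Cre only libraries, and the DKO libraries overlapped them. The log2 change was -0.53 ± 0.25 in DKO (adjusted p = 0.172), -0.49 ± 0.24 in Ikzf1 KO (adjusted p = 0.276) and -0.65 ± 0.24 in Ikzf3 KO cells (adjusted p = 0.0754), and none passed. The Ikzf3 KO value passed without S3 and S4 (-0.99, adjusted p = 0.0256), without S5 (adjusted p = 0.0286) and with library weights (-1.04, adjusted p = 0.000544), and the Ikzf1 KO value passed with only the compared groups (adjusted p = 0.0212) and with library weights (adjusted p = 0.00471).

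Lamp1 (ENSMUSG00000031447, chr8:13159161-13175338, plus strand), the granule membrane glycoprotein, had 100.8, 84.3 and 77.0 RPKM in the DKO libraries and 67.9, 63.3, 67.0 and 75.9 in the Ikzf1 KO libraries. The Ikzf3 KO libraries had 62.1, 69.3, 68.3 and 67.1 RPKM, against 69.4, 63.6, 79.3 and 84.8 in the Cre only libraries. The DKO libraries lay above those of both single knockouts and overlapped the Cre only libraries. The changes against Cre only cells were 0.23 ± 0.13 in DKO (adjusted p = 0.237), -0.11 ± 0.12 in Ikzf1 KO (adjusted p = 0.725) and -0.15 ± 0.12 in Ikzf3 KO cells (adjusted p = 0.397). The DKO value against Ikzf3 KO cells, 0.38 ± 0.13, just missed the threshold (adjusted p = 0.0530) and passed after median ratio scaling (adjusted p = 0.0496), after quantile normalization (adjusted p = 0.0348) and without S7 (adjusted p = 0.0488). Lamp1 overlaps Grtp1 on the opposite strand.

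**Figure D3:**
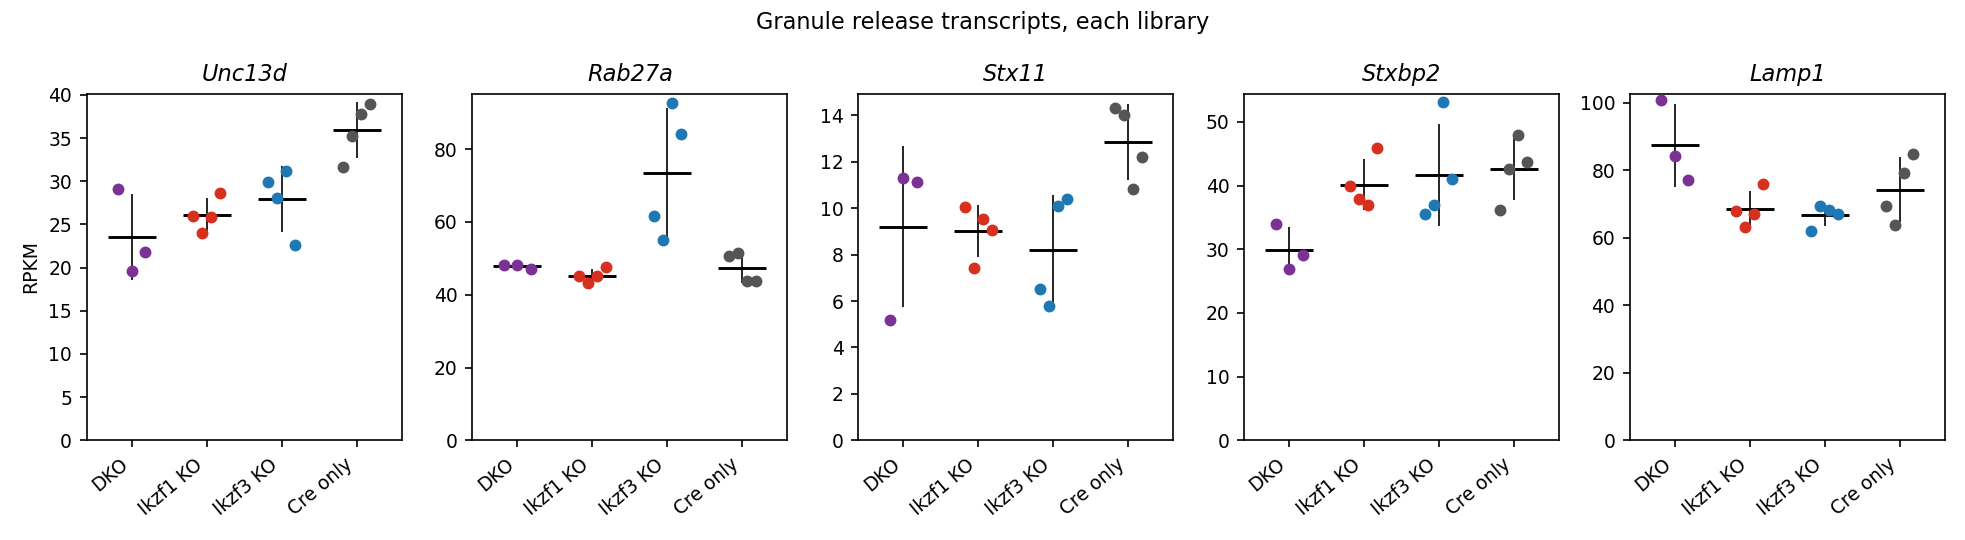
RPKM of Unc13d, Rab27a, Stx11, Stxbp2 and Lamp1 in each library of DKO, Ikzf1 KO, Ikzf3 KO and Cre only cells, with the mean and SD of each group as lines. Unc13d is lower in all knockout libraries than in the Cre only libraries, and Rab27a is highest in the 4 Ikzf3 KO libraries, at 55.1 to 92.8 RPKM.

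Counted over the set, 6 of the 9 members were called in DKO against Cre only cells, 2 higher and 4 lower. The background in that comparison was 18.7% of 10032 genes tested, 8.06% higher and 10.6% lower. In Ikzf1 KO against Cre only cells 1 of 9 was called, lower, against a background of 6.32%, with 3.54% higher and 2.78% lower, and a single member is not far from that share. In Ikzf3 KO against Cre only cells 3 of 9 were called, 2 higher and 1 lower, against a background of 14.2%, with 6.30% higher and 7.88% lower. The median log2 change of the members was -0.50 in DKO, -0.11 in Ikzf1 KO and -0.23 in Ikzf3 KO cells, beside medians between -0.0156 and -0.0008 over all genes tested. These 3 comparisons share the Cre only libraries. The members were chosen with earlier results of these data known, so all counts of members are a description.

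Between knockouts, 4 of 9 members were called in DKO against Ikzf1 KO cells, 2 in each direction, against a background of 7.48%, with 3.76% higher and 3.72% lower. In DKO against Ikzf3 KO cells 4 of 9 were called, 1 higher and 3 lower, against 20.1% of all genes, with 10.2% higher and 9.85% lower. In Ikzf1 KO against Ikzf3 KO cells 4 of 9 were called, 1 higher and 3 lower, against 17.7%, with 9.01% higher and 8.68% lower. The departure from additivity was called for 1 of 9, Gzmm, against 6.55% of all genes, with 3.63% above and 2.92% below the sum.

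**Figure D4:**
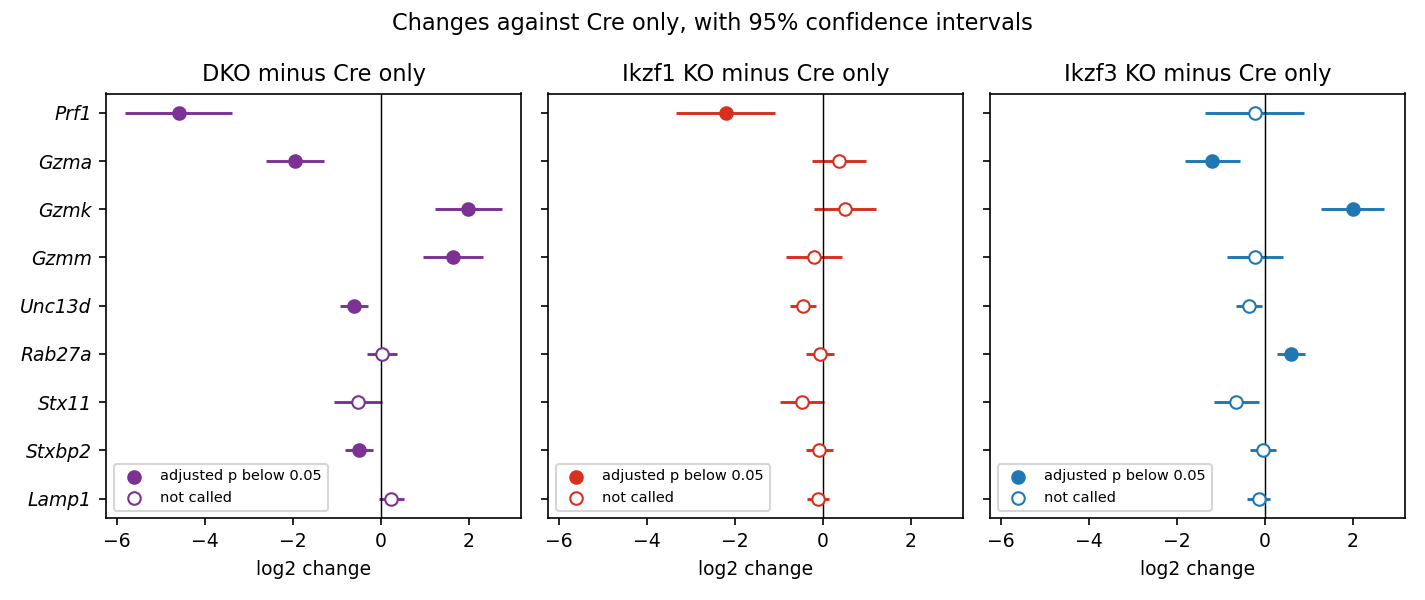
Log2 change of the 9 members in DKO, Ikzf1 KO and Ikzf3 KO cells against Cre only cells, with 95% confidence intervals, filled where the adjusted p was below 0.05. Prf1 reaches -4.60 in DKO and -2.21 in Ikzf1 KO cells, and the members of the release machinery lie between -0.65 and 0.60.

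Other genes of the granule pathway were counted in 4 lists. The lists were also chosen with earlier results of these data known, and their counts are a description. Proteins that store, activate or restrain cargo made up the shortest, with 6 genes, all tested. In DKO cells 3 fell and none rose, against 10.6% of all genes lower and 18.7% called in either direction, with a median log2 change of -0.52 over the list. They were Srgn, encoding serglycin, the proteoglycan on which cargo is packed, at 182 ± 30.5 RPKM in DKO (SD, n = 3) against 333 ± 40.3 RPKM in Cre only cells (SD, n = 4) and a log2 change of -0.87 ± 0.18 (adjusted p = 0.00437), Ctsc, encoding the cathepsin that activates granzymes (-0.58 ± 0.14, adjusted p = 0.00961), and Nkg7, a granule membrane protein (-0.50 ± 0.14, adjusted p = 0.0269). In Ikzf3 KO cells Nkg7 (-0.68 ± 0.13, adjusted p = 0.00543) and Ctsw, encoding cathepsin W (-0.86 ± 0.20, adjusted p = 0.0135), fell and none rose. None of the 6 passed in Ikzf1 KO cells. The share over all genes was 14.2% in Ikzf3 KO and 6.32% in Ikzf1 KO cells, and counts of so short a list are a description. The median of the list was -0.40 in Ikzf1 KO and -0.56 in Ikzf3 KO cells. Ctsw averaged 426 ± 164 RPKM in DKO, 338 ± 41.4 in Ikzf1 KO, 274 ± 58.8 in Ikzf3 KO and 491 ± 40.2 in Cre only cells, with a departure from additivity of 1.13 ± 0.30 (adjusted p = 0.0356). Over the alternatives, the number called in DKO cells ran between 0, without S16 and S17, and 4, and that in Ikzf3 KO cells between 0, without S16 and S17, and 3. In Ikzf1 KO cells it ran between 0 and 5, the latter with library weights, under which 3746 of 10032 genes were called. For additivity Ctsw was the 1 gene of the list called, and the number ran between 0 and 3. It was 0 without S3, S5, S6, S12, S13, S14, S16, S17, S18 or S19 alone, and without S16 and S17 or S18 and S19.

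Of 24 tested genes of SNARE, tethering and priming proteins other than the members, 1 was higher and 5 were lower in DKO against Cre only cells, together 25.0% beside 18.7% of all genes. Those with the smallest adjusted p were Unc13a, a relative of Unc13d (-1.24 ± 0.24, adjusted p = 0.00269), Sytl2, encoding a Rab27 effector (-0.98 ± 0.23, adjusted p = 0.00913), Stx7, a late endosomal syntaxin (-0.58 ± 0.14, adjusted p = 0.00961), and Stx3, the one counted as higher (0.58 ± 0.16, adjusted p = 0.0190). Stx3 reached the filter of 1 RPKM in all DKO and Ikzf3 KO libraries and in 0 of the Ikzf1 KO and Cre only libraries, so it was tested only through the groups in which it is high, and its values are a description. Unc13a reached the filter in 0 of the 3 DKO libraries, 1 Ikzf1 KO library, 4 Ikzf3 KO libraries and 3 Cre only libraries. It too was thus tested through the groups in which it is high, and its values are a description. Unc13a and Stx3 are both part of the 25.0% called in DKO cells. That share therefore cannot be read as an excess over the 18.7% of all genes. In Ikzf3 KO cells 2 were higher and 1 lower, together 12.5% beside 14.2% of all genes: Rab27b, the close paralogue of Rab27a (0.83 ± 0.13, adjusted p = 0.00138), Stx3 (0.63 ± 0.15, adjusted p = 0.0122, with the same limit), and Vamp2, a vesicle SNARE (-0.45 ± 0.14, adjusted p = 0.0420). None passed in Ikzf1 KO cells. Rab27b averaged 2.78 ± 0.498 RPKM in DKO (SD, n = 3), 4.14 ± 0.430 in Ikzf1 KO, 6.01 ± 0.294 in Ikzf3 KO and 3.17 ± 0.551 in Cre only cells (SD, n = 4 each), and it departed from additivity by -1.34 ± 0.20 (adjusted p = 0.00125). Its mean level was highest in Ikzf3 KO cells, as was that of Rab27a. The median of the list was -0.12 in DKO, 0.01 in Ikzf1 KO and 0.06 in Ikzf3 KO cells. Over the alternatives between 2 and 10 were called in DKO, 0 and 12 in Ikzf1 KO and 1 and 5 in Ikzf3 KO cells. The 12 in Ikzf1 KO cells were called with library weights, under which 3746 of 10032 genes were called.

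Of 22 tested genes of lysosome-related organelle formation, 1 rose and 3 fell in DKO cells, 2 fell in Ikzf3 KO cells and none passed in Ikzf1 KO cells. The share called was 18.2% in DKO cells, beside 18.7% of all genes, and 9.09% in Ikzf3 KO cells, beside 14.2% of all genes. Cd63, a tetraspanin of the granule membrane, averaged 3.62 ± 3.21 RPKM in DKO (SD, n = 3) and 16.4 ± 4.15 RPKM in Cre only cells (SD, n = 4), with a log2 change of -2.34 ± 0.46 (adjusted p = 0.00274). Gnptab, which starts the mannose 6-phosphate tag of lysosomal enzymes (-1.09 ± 0.24, adjusted p = 0.00591), and Hps1, a sorting gene (-0.63 ± 0.10, adjusted p = 0.000687), also fell in DKO cells, and Lamp2, the relative of Lamp1, rose (0.66 ± 0.16, adjusted p = 0.0115). In Ikzf3 KO cells Hps1 (-0.34 ± 0.09, adjusted p = 0.0317) and Ap3d1, a subunit of the AP-3 adaptor (-0.68 ± 0.20, adjusted p = 0.0335), fell. The median of the list was -0.17 in DKO, -0.12 in Ikzf1 KO and -0.24 in Ikzf3 KO cells. Over the alternatives between 3 and 8 were called in DKO, 0 and 3 in Ikzf1 KO and 0 and 7 in Ikzf3 KO cells. The 3 in Ikzf1 KO cells were called with library weights, under which 3746 of 10032 genes were called.

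Of 17 tested genes of granule transport along microtubules and through actin, none rose and 5 fell in DKO, 1 fell in Ikzf1 KO and 2 fell in Ikzf3 KO cells. The share called was 29.4% in DKO cells (all genes 18.7%), 5.88% in Ikzf1 KO cells (all genes 6.32%) and 11.8% in Ikzf3 KO cells (all genes 14.2%). Dock8, a guanine nucleotide exchange factor for Cdc42, averaged 52.7 ± 9.63 RPKM in DKO (SD, n = 3) and 122 ± 14.6 RPKM in Cre only cells (SD, n = 4), with a log2 change of -1.21 ± 0.20 (adjusted p = 0.000686). The Arp2/3 subunit genes Arpc2 (-0.57 ± 0.11, adjusted p = 0.00189) and Arpc1b (-0.61 ± 0.12, adjusted p = 0.00338) and the lysosomal GTPase gene Arl8a (-0.67 ± 0.15, adjusted p = 0.00749) were also lower in DKO cells. Arpc2 was the one that fell in Ikzf1 KO cells (-0.40 ± 0.10, adjusted p = 0.0251). In Ikzf3 KO cells Was, encoding the Wiskott-Aldrich protein (-0.54 ± 0.11, adjusted p = 0.00801), and Coro1a, encoding coronin 1A (-0.83 ± 0.20, adjusted p = 0.0172), fell. The median log2 change of the transport genes was -0.36 in DKO, -0.24 in Ikzf1 KO and -0.27 in Ikzf3 KO cells. Over the alternatives the counts moved widely, between 3 and 10 called in DKO, 0 and 8 in Ikzf1 KO and 0 and 6 in Ikzf3 KO cells. The 8 in Ikzf1 KO cells were called with library weights, under which 3746 of 10032 genes were called.

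**Figure D5:**
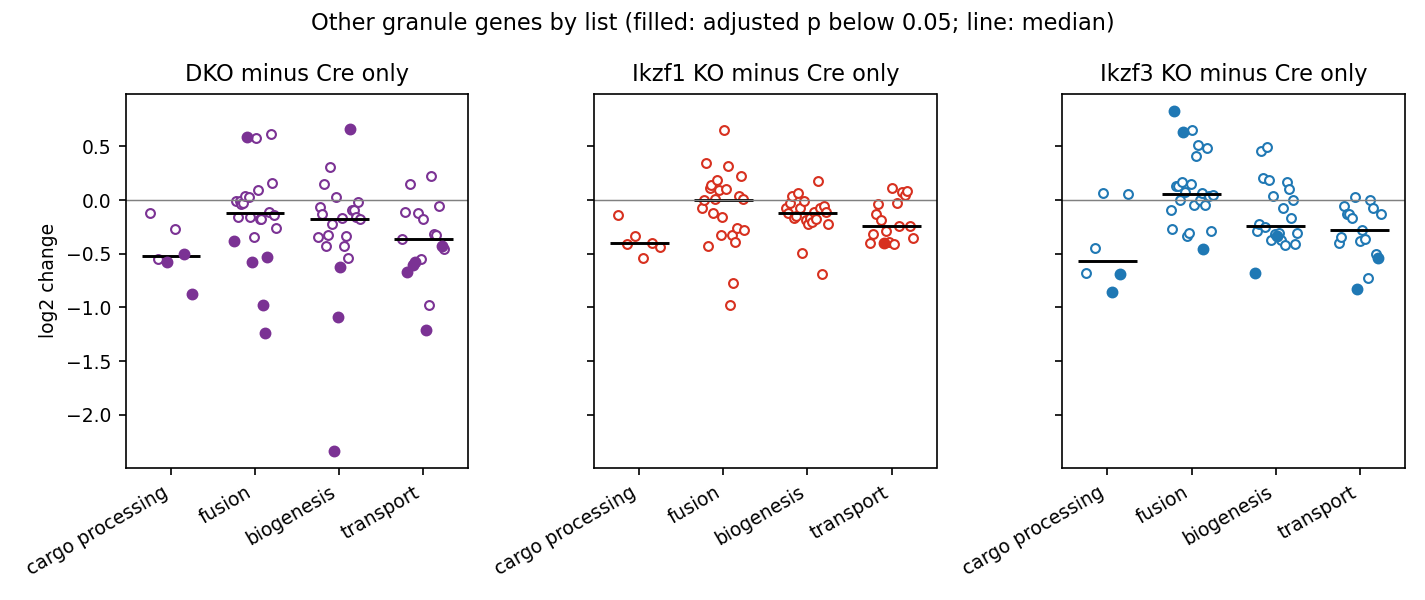
Log2 change against Cre only cells of the other granule genes, by list, in DKO, Ikzf1 KO and Ikzf3 KO cells, with filled points where the adjusted p was below 0.05 and the median of each list as a line. Cd63, at -2.34 in DKO cells, is the lowest called point among the lysosome-related organelle genes, and in Ikzf1 KO cells Arpc2 is the one filled point.

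Patterns across the 15 libraries were compared by the root mean square difference of log2 values, each gene centred on its mean, over 6324 or 6325 other genes with a mean of at least 5 RPKM. This is a description with no test. Closest to Prf1 were Adam8, a membrane metalloprotease (0.54), Ltb4r1, a leukotriene B4 receptor (0.70), and Spp1, encoding osteopontin (0.74). Adam8 averaged 6.77 ± 5.32 RPKM in DKO, 33.9 ± 8.37 in Ikzf1 KO, 74.4 ± 25.5 in Ikzf3 KO and 99.0 ± 27.7 in Cre only cells. Closest to Gzma were Klra5, a Ly49 receptor gene (0.39), Il21r, the interleukin 21 receptor gene (0.45), and Tesc, encoding tescalcin (0.47). Klra5 averaged 6.97 ± 2.64 RPKM in DKO, 29.7 ± 3.72 in Ikzf1 KO, 11.4 ± 5.11 in Ikzf3 KO and 40.1 ± 5.45 in Cre only cells. Closest to Gzmk were Emp1 (0.42), Prdx4 (0.51) and Cldnd1 (0.51), and closest to Gzmm were Lat, an adaptor of T cell receptor signalling (0.36), Tmem64 (0.45) and Ndufa4 (0.45). Lat averaged 46.6 ± 15.3 RPKM in DKO, 15.4 ± 5.49 in Ikzf1 KO, 12.8 ± 1.84 in Ikzf3 KO and 19.2 ± 3.33 in Cre only cells.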

How the data were processed

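The authors deposited a single table of RPKM for 11736 genes, with no counts. Per the submitters' processing notes, STAR, featureCounts, limma 3.34.9 and the build mm10 were used, without settings. Per the labels' protocols, 75 bp single-end reads came from stranded libraries of RNA with integrity numbers above 7.0. Columns name the genotype only. DKO and Ikzf3 KO have only cultured samples, and the Ikzf1 KO and Cre only columns were assigned to the cultured groups by group size. Times exon lengths of GENCODE release 21, the values of 11291 genes (96.2%) were whole reads within 0.02 read in every library. Libraries of a group differed beyond sampling noise (chi-square per degree of freedom 3.56 to 242). Depth limits the precision of Gzmm, whose counting error of 13.5 to 27.7% per library outside DKO was not far below the spread of its groups.

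Genes with at least 1 RPKM in at least 3 of 15 libraries (10032 genes, all 9 members among them) were fitted as log2(RPKM + 0.5) in R 4.3.3 with limma 3.58.1, using a mean for each of the 4 groups, all libraries, a mean-variance trend, robust moderation and 11 residual degrees of freedom. Tests were 2-sided, with Benjamini-Hochberg adjustment over all genes of a comparison, and a gene was called at an adjusted p below 0.05. Folds were taken from these log2 changes and so refer to RPKM + 0.5. The procedure was run on simulated data with independent libraries and the same spread of a gene in every group. The libraries here differ from that, so the run does not bear on whether the calls above hold. Alternatives were other pseudocounts, no filter, median ratio scaling, quantile normalization, library weights, only the compared groups, and libraries left out. Levels, promoters and figures were made in Python 3.11.15 (numpy 2.4.6, pandas 2.3.3, scipy 1.17.1, matplotlib 3.10.9).

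The members and lists were chosen with earlier results of these data known. Named besides the members were Ikzf1 and Ikzf3, of each list the called genes of lowest adjusted p (at most 4 a comparison), and the 3 genes closest in pattern to each cargo gene, predicted genes and receptor segments left out.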

Additional observations from a re-analysis of the deposited data

Results flagged for a closer look

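In 27 groups of 4 libraries, 9 members in 3 genotypes, the library farthest from the others was checked, and chance alone sets apart about 1 in 20 such groups. Gzmk was at 5.06 RPKM in the Ikzf1 KO library S15, and the gap to the nearest of the other 3 was 0.901 of the whole range. Gzmm was at 0.858 RPKM in the Cre only library S18, 0.907 of the range below the nearest of the other 3. The change of Gzmm in DKO cells differed from the sum of the changes in Ikzf1 KO and Ikzf3 KO cells by 2.07 on the log2 scale (limma, adjusted p = 0.0108), a test of the difference itself.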

How the results depend on the processing

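Of 63 member tests 23 were called, 12 of them under every alternative, and no called value changed sign. No paired analysis was possible because the columns carry no replicate number. The weights of libraries were estimated in a fit that stopped before full convergence. Gzmm (13 to 250 reads per library) and Gzmk (40 to 415) rest on the fewest reads of the members. The shorter motif GGGAA was in 8 member promoters, against 2 with TGGGAA, as it is contained in the longer one. For the counts below that moved, the cause was not tested.

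With library weights the genes called against Cre only were 3059 in DKO, 3746 in Ikzf1 KO and 2201 in Ikzf3 KO, 2076 in DKO against Ikzf1 KO, 3002 in Ikzf1 KO against Ikzf3 KO and 1447 for additivity, with 5 members in Ikzf1 KO against Cre only and 4 for additivity. With only the compared groups they were 2009 in Ikzf1 KO (4 members) and 448 in Ikzf3 KO against Cre only, 1771 in DKO against Ikzf1 KO, 678 in DKO against Ikzf3 KO (2 members) and 1085 in Ikzf1 KO against Ikzf3 KO. Without S3 and S4 they were 3684 in DKO and 1708 in Ikzf1 KO against Cre only (2 members), 2142 in DKO against Ikzf1 KO, 1154 in Ikzf1 KO against Ikzf3 KO and 1036 for additivity (2 members), and 2 members in DKO against Ikzf3 KO. Without S16 and S17 they were 1113 in DKO, 375 in Ikzf1 KO (0 members) and 571 in Ikzf3 KO against Cre only, with 0 members for additivity. Without S18 and S19 they were 766 in Ikzf3 KO against Cre only (1 member).

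Leaving out 1 library gave 1040 to 2304 genes in DKO, 334 to 820 in Ikzf1 KO (0 to 2 members) and 831 to 3004 in Ikzf3 KO against Cre only, 395 to 1126 in DKO against Ikzf1 KO (2 to 4 members), 1231 to 3099 in DKO against Ikzf3 KO (2 to 4 members), 875 to 3357 in Ikzf1 KO against Ikzf3 KO, and 379 to 848 for additivity (1 to 2 members). Counts of genes moved by over 1.5 times without S6 in DKO, S12, S13, S14 or S18 in Ikzf1 KO and S1, S2, S3, S4, S16, S17 or S18 in Ikzf3 KO against Cre only, S4, S6, S12, S13 or S14 in DKO against Ikzf1 KO, S1 or S6 in DKO against Ikzf3 KO, S1, S2, S3, S4, S12, S14 or S15 in Ikzf1 KO against Ikzf3 KO, and S6, S12, S13 or S14 for additivity.

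Values that were not called in the main analysis changed sign as follows, on the log2 scale. With library weights they were 0.281 for Prf1 in Ikzf3 KO and -0.0212 for Rab27a in DKO against Cre only, 0.0488 for Stx11 in DKO against Ikzf1 KO, 0.916 for Gzmk in DKO against Ikzf3 KO (then called), -0.320 for Gzmm and 0.0485 for Stxbp2 in Ikzf1 KO against Ikzf3 KO, and 0.470 for Gzmk in additivity. After quantile normalization Gzmk in DKO against Ikzf3 KO was 0.0025. Without S3 and S4, Prf1 in Ikzf3 KO against Cre only was 0.540, Gzmk in DKO against Ikzf3 KO 0.683, Gzmm -0.177 and Stxbp2 0.141 in Ikzf1 KO against Ikzf3 KO, and Gzmk in additivity 0.186. Without S16 and S17, Rab27a in Ikzf1 KO was 0.0473 and Prf1 in Ikzf3 KO 0.183 against Cre only. Without S18 and S19, against Cre only, Rab27a in DKO was -0.0970, Stxbp2 0.0260 and Lamp1 0.0405 in Ikzf1 KO, and Stxbp2 0.0650 and Lamp1 0.0039 in Ikzf3 KO. Leaving out 1 library gave -0.524 to 0.206 for Prf1 and -0.166 to 0.0244 for Stxbp2 in Ikzf3 KO and -0.0240 to 0.0551 for Rab27a in DKO against Cre only, -0.219 to 0.306 for Stx11 in DKO against Ikzf1 KO, -0.244 to 0.341 for Gzmk and -0.0545 to 0.471 for Stx11 in DKO against Ikzf3 KO, and -0.147 to 0.127 for Gzmm, -0.108 to 0.0826 for Stxbp2 and -0.0136 to 0.0735 for Lamp1 in Ikzf1 KO against Ikzf3 KO.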
